A study of Mus musculus with 11 samples.

Results

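The genes described are 8 costimulatory receptors of T cells, taken by symbol from the deposited table of 14604 genes. They are 6 members of the TNF receptor superfamily (Tnfrsf4, Tnfrsf9, Tnfrsf18, Tnfrsf1b, Tnfrsf1a and Cd27) and 2 activating members of the CD28 family (Cd28 and Icos). All 8 symbols were listed, and all 8 passed the filter on low values, a mean log2(n + 1) of 0.5 over the libraries, which left 13897 genes to test. Regulatory T cells (Tregs) were sorted as live CD4+ GITR+ CD25+ cells from tumors of MC38, a mouse colon adenocarcinoma line grown in mice, and from the spleens of those mice. RNA of the sorted cells was depleted of ribosomal RNA and sequenced. GITR is the protein made from Tnfrsf18, so 1 of the 8 receptors was itself a gate of the sort in both tissues. By the labels, wild-type (WT) mice were CD177flox/flox and carried no Cre, and knockout (KO) mice were CD177flox/flox/FOXP3-CreYFP, in which Cre is driven from Foxp3, the gene of the Treg lineage factor. Both genotypes therefore carried the floxed Cd177 alleles, and every spleen also came from a mouse with an MC38 tumor. There were 3 WT and 3 KO spleen libraries and 3 WT and 2 KO tumor libraries. The labels do not say whether the libraries of a group came from separate animals, so the p-values measure only the spread between these libraries. Cd177 was not analysed here, so the genotype labels were not checked against its transcript.

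Costimulatory receptors deliver the signals that T cells need beside recognition of antigen. CD28 and ICOS bind ligands of the B7 family on antigen-presenting cells and act largely through phosphoinositide 3-kinase, CD28 also through Grb2. The TNF receptor family members instead bind trimeric ligands and recruit TRAF adaptors that activate NF-kB. CD28 and CD27 are already present on resting T cells, while 4-1BB, OX40 and ICOS are induced by activation, and Tregs carry GITR, OX40 and TNFR2 at high levels.

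The receptor genes lie on 3 mouse chromosomes (GRCm38, which is mm10; GENCODE M21). Tnfrsf4 (ENSMUSG00000029075, chr4:156013843-156016612, plus strand) and Tnfrsf18 (ENSMUSG00000041954, chr4:156026164-156028895, plus strand) are separated by 9552 bp. Tnfrsf9 (ENSMUSG00000028965, chr4:150914562-150946102, plus strand) and Tnfrsf1b (ENSMUSG00000028599, chr4:145213463-145246870, minus strand) lie on the same chromosome. Cd27 (ENSMUSG00000030336, chr6:125232622-125237010, minus strand) and Tnfrsf1a (ENSMUSG00000030341, chr6:125349362-125362484, plus strand) are on chromosome 6. Cd28 (ENSMUSG00000026012, chr1:60716800-60773359, plus strand) and Icos (ENSMUSG00000026009, chr1:60977927-61000320, plus strand) are on chromosome 1. An exon of Tnfrsf18 overlaps the opposite-strand gene Gm16008, and an exon of Cd27 overlaps Mir8113 on the same strand, so the values of Tnfrsf18 and Cd27 may include reads of these genes.

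The reference sequence at the starts of 2 receptor genes is shown because they had the largest rise (Tnfrsf9) and the largest fall (Cd27) of the 8 between the tissues. The windows come from RefSeq on GRCm38.p6, run from 250 bases before to 50 bases after an annotated start, and are printed 5′ to 3′ on the strand of the gene. Windows were found for 6 of the 8 genes, 7 windows in all, and Cd28 and Icos are not among them. Both Tnfrsf9 windows lie inside the gene span given above, and the first base of that span (chr4:150914562) was not searched. The Tnfrsf9 window printed first is the one further from that base. Each window was searched on both strands for the NF-kB consensus motif, the site of the transcription factor that TNF receptors activate, and for TGANTCA, the site of AP-1 factors. Capitals mark the matches.
Tnfrsf9, chr4:150927749-150928048, plus strand: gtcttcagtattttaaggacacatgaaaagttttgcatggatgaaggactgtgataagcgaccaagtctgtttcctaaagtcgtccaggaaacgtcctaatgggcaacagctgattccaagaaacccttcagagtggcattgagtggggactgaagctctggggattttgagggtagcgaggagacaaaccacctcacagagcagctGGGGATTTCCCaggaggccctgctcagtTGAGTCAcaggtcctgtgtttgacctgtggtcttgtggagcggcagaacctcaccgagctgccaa
Tnfrsf9, chr4:150919905-150920204, plus strand: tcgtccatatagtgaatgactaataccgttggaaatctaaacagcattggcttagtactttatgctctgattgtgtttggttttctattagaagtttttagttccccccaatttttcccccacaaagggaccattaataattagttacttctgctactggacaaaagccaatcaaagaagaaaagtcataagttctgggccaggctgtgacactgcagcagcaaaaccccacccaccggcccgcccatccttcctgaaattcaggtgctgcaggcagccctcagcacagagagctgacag
Cd27, chr6:125236978-125237277, minus strand: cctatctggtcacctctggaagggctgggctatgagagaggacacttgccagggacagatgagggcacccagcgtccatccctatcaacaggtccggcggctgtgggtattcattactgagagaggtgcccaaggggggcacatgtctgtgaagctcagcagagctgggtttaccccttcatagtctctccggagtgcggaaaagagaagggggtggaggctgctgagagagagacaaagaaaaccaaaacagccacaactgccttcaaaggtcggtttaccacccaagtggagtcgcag
The first Tnfrsf9 window held 2 overlapping NF-kB matches that span bases 33 to 43 before the start and 1 TGANTCA match at bases 9 to 15 before the start. The second Tnfrsf9 window, the Cd27 window and those of Tnfrsf4, Tnfrsf18, Tnfrsf1b and Tnfrsf1a held neither. Among 32851 promoter windows of this length, 4.51% held the NF-kB motif, 7.81% held TGANTCA and 0.332% held both. The motifs were chosen with the Tnfrsf9 rise known, a match describes letters and not binding, and the deposited values are summed by gene and do not show which start was used.

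Between tumor-infiltrating Tregs (TI-Tregs) and splenic Tregs, 6 of the 8 receptor genes were higher in tumor and 2 were lower. Tnfrsf9, Icos, Tnfrsf1b, Tnfrsf1a, Tnfrsf4 and Tnfrsf18 rose, in this order of size, and Cd27 and Cd28 fell. All 8 passed limma with a Benjamini-Hochberg adjusted p below 0.05 over the 13897 genes. The tissues differed in most genes, as 43.1% of the tested genes were called higher in tumor and 35.9% lower, so a call by itself did not set a receptor apart. The median difference over the 8 receptors was 1.70 on the log2 scale, beside 0.08 over all tested genes. No spleen library overlapped a tumor library for any of the 8 receptors, which was also true of 63.5% of the tested genes. Without overlap, the exact two-sided permutation test over the 11 libraries had to give p = 0.0043 for every receptor. That is the smallest value that 5 against 6 libraries allow, and it adds nothing to the lack of overlap. Within WT mice all 8 were called as well (39.2% of the tested genes higher and 31.3% lower), and within KO mice all 8 again (36.2% higher and 29.5% lower). In bulk RNA a smaller share of cells carrying a transcript and less of it per cell cannot be told apart.

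**Figure D1:**
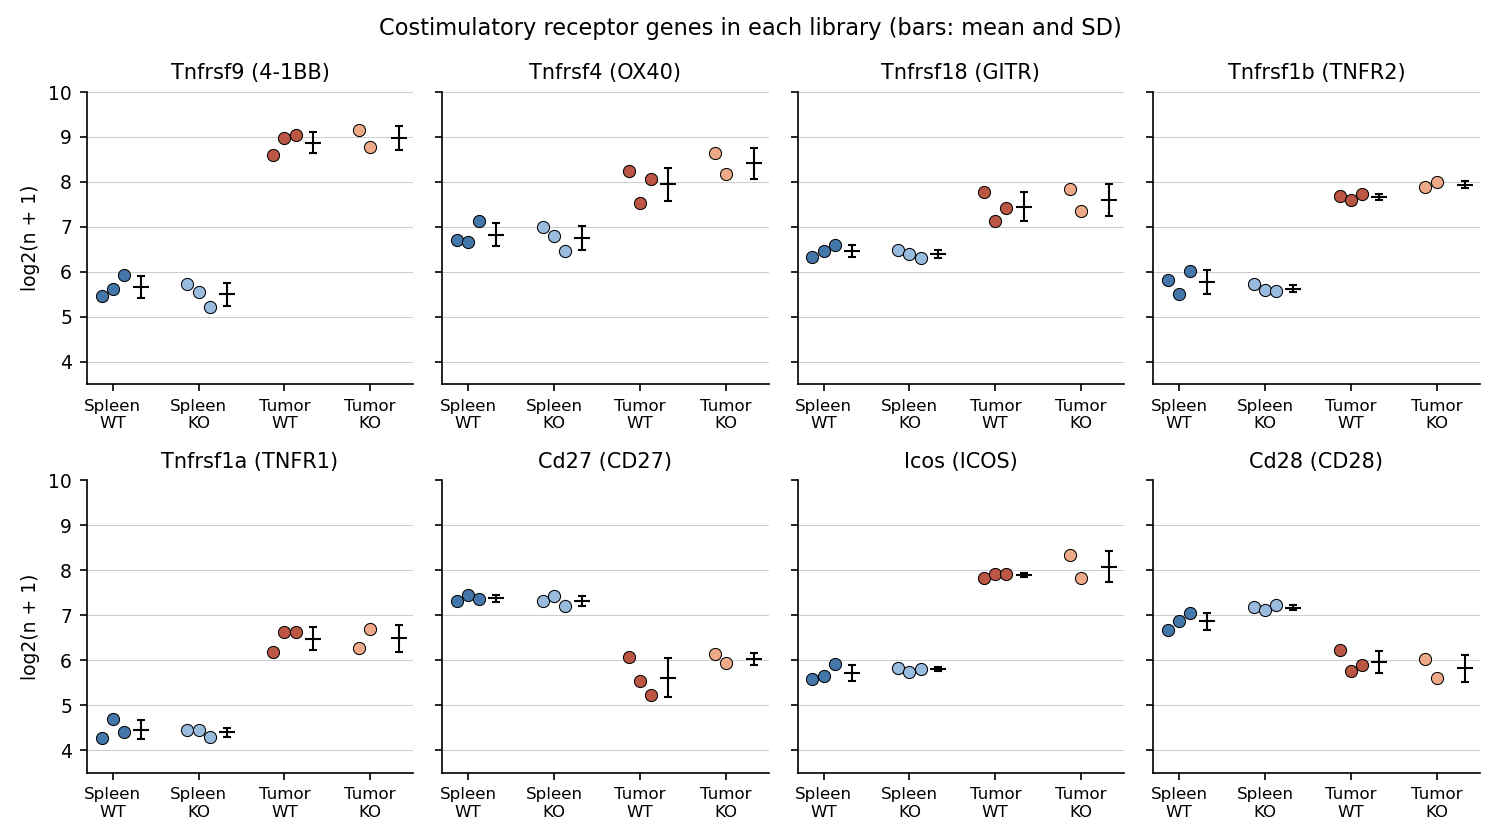
Level of each receptor gene on the log2(n + 1) scale in the 11 libraries, 1 panel a gene, with points for libraries in the order of their replicate numbers and bars for the mean and SD of each group (WT wild type, KO knockout). Tnfrsf9 lies between 5.21 and 5.93 in spleen and between 8.60 and 9.16 in tumor, and Cd27 and Cd28 are the only panels in which the tumor points lie below the spleen points.

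Tnfrsf9 encodes 4-1BB, a receptor that is induced when T cells are activated and signals through TRAF1 and TRAF2. Its log2(n + 1) level was 5.46, 5.61 and 5.93 in the WT spleen libraries and 5.73, 5.55 and 5.21 in the KO spleen libraries. In tumor the level was 8.60, 8.97 and 9.04 in WT and 9.16 and 8.78 in KO libraries. The lowest tumor library lay 2.67 above the highest spleen library, the widest gap among the 8 receptors. On the linear scale n rose 10.2-fold, from 47.5 ± 8.16 (SD, n = 6) to 485 ± 72.7 (SD, n = 5). The log2 difference was 3.33 (SE 0.13, limma adjusted p = 1.57e-10), the 385th largest rise among the 13897 tested genes. It was 3.21 within WT and 3.47 within KO mice.

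Tnfrsf4 encodes OX40, another activation-induced receptor, which Tregs express more constitutively than conventional T cells do. Spleen levels were 6.70, 6.67 and 7.13 in WT and 7.001, 6.80 and 6.47 in KO libraries. Tumor levels were 8.24, 7.54 and 8.07 in WT and 8.65 and 8.17 in KO libraries. WT tumor replicate 2 was the lowest tumor library and still lay 0.41 above the highest spleen library. The mean n was 2.59-fold higher in tumor (288 ± 77.2, SD, n = 5) than in spleen (111 ± 18.6, SD, n = 6). The log2 difference was 1.34 (SE 0.17, limma adjusted p = 8.40e-06), with 1.12 in WT and 1.65 in KO mice. Scaling moved this value, since it was 0.59 after quantile normalization and 0.71 after the libraries were brought to equal totals of n.

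Tnfrsf18 encodes GITR, a receptor that Tregs carry at high level and for which these cells were gated. Libraries from spleen had levels of 6.33, 6.47 and 6.59 in WT and 6.48, 6.41 and 6.30 in KO mice. Libraries from tumor had levels of 7.79, 7.14 and 7.43 in WT and 7.85 and 7.34 in KO mice. The 6 spleen values lay close together (SD 0.11), and the tumor values were more spread (SD 0.30) with the lowest again in WT tumor replicate 2. The rise of 1.08 (SE 0.12, limma adjusted p = 2.10e-06) corresponded to a 2.16-fold higher mean n and was the smallest of the 6. Since the gate required GITR protein, the values do not describe all CD4+ CD25+ cells. Markers of other cells, given below, were also high in the tumor libraries, so the values may not describe GITR+ cells alone. The difference was 0.45 with quantile normalization and 0.46 with equal totals. Within WT mice, neither Tnfrsf4 nor Tnfrsf18 passed the test after quantile normalization (0.35 for both, limma adjusted p = 0.21 and 0.10).

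Tnfrsf1b and Tnfrsf1a encode the receptors of TNF. TNFR2, from Tnfrsf1b, is largely restricted to lymphoid, myeloid and endothelial cells, lacks a death domain and is prominent on Tregs, whereas TNFR1, from Tnfrsf1a, carries a death domain and is made by most cell types. Tnfrsf1b had levels of 5.81, 5.50 and 6.01 in WT spleen, 5.72, 5.59 and 5.57 in KO spleen, 7.69, 7.59 and 7.73 in WT tumor, and 7.88 and 7.99 in KO tumor libraries. Tumor values were tightly grouped (SD 0.16) and the nearest tumor and spleen libraries were 1.58 apart. Tnfrsf1a had levels of 4.28, 4.68 and 4.40 in WT spleen, 4.46, 4.46 and 4.29 in KO spleen, 6.18, 6.64 and 6.63 in WT tumor, and 6.28 and 6.70 in KO tumor libraries. The lowest tumor library lay 1.495 above the highest spleen library. Both genes rose by about the same amount, Tnfrsf1b by 2.07 (SE 0.10, limma adjusted p = 1.10e-09) and Tnfrsf1a by 2.06 (SE 0.11, limma adjusted p = 2.51e-09). These correspond to a 4.26-fold and a 4.34-fold higher mean n. With equal totals the rises were 1.45 for each, and both were called in every alternative tried.

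Icos encodes the inducible member of the CD28 family. Its spleen levels were 5.59, 5.64 and 5.93 in WT and 5.84, 5.75 and 5.80 in KO libraries, and its tumor levels were 7.84, 7.92 and 7.93 in WT and 8.33 and 7.84 in KO libraries. KO tumor replicate 1 stood above the other tumor libraries, and even the lowest tumor library was 1.91 above the highest spleen library. Mean n rose 4.73-fold, from 53.3 ± 4.72 (SD, n = 6) to 252 ± 39.2 (SD, n = 5). The log2 difference of 2.21 (SE 0.09, limma adjusted p = 4.11e-10) was the second largest of the 8 receptors and was 2.18 in WT and 2.29 in KO mice.

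Cd28 encodes the receptor for CD80 and CD86 that is already present on naive T cells. In WT spleen its levels were 6.68, 6.87 and 7.04, and in KO spleen 7.18, 7.11 and 7.24. In WT tumor they were 6.22, 5.75 and 5.90, and in KO tumor 6.04 and 5.61. All 5 tumor libraries lay below all 6 spleen libraries, with the nearest ones 0.46 apart. The level fell by 1.12 (SE 0.12, limma adjusted p = 2.12e-06), and mean n was 2.18-fold higher in spleen. The fall was 1.74 after scaling to equal totals.

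Cd27 encodes the receptor for CD70, which resting T cells carry and which is lost from T cells after prolonged activation. Spleen levels ran from 7.21 to 7.46, with 7.31, 7.46 and 7.36 in WT and 7.33, 7.42 and 7.21 in KO libraries. Levels in tumor were 6.07, 5.55 and 5.22 in WT and 6.13 and 5.94 in KO libraries. The spleen values were the most tightly grouped of the 8 receptors (SD 0.09), and WT tumor replicate 3 was the lowest of all. The level fell by 1.57 (SE 0.14, limma adjusted p = 3.77e-07), which made it the 563rd largest fall among the tested genes, and mean n was 2.92-fold higher in spleen. The fall was 1.77 within WT and 1.29 within KO mice.

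**Figure D2:**
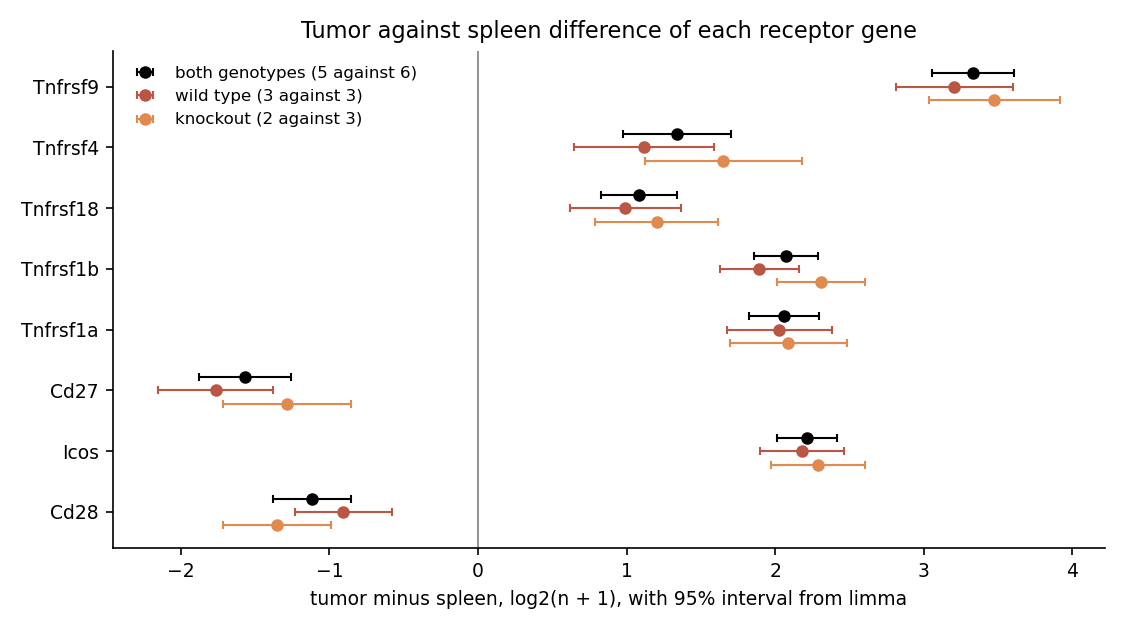
Tumor minus spleen difference of each receptor gene on the log2(n + 1) scale, with the 95% interval from limma, for both genotypes together (5 against 6 libraries), for wild type (3 against 3) and for knockout (2 against 3). The 6 rises and the 2 falls keep their side of 0 in each genotype, and the wild-type and knockout intervals overlap for every gene.

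The values rest on how the libraries are scaled, because the scaling behind n is not stated. Taken back to n, the spleen libraries summed to between 712832 and 844331 and the tumor libraries to between 1103160 and 1304550, and a single gene, Gm12896, made up 31.4% to 42.4% of each library. Equal totals moved the median of all tested genes to -0.44, quantile normalization to -0.16, median centring to -0.14, and centring on the mean of Cd3d, Cd3e and Cd3g to 0.43. Among called genes the share that was higher in tumor was 54.5% as deposited, 29.6% with equal totals, 42.1% with quantile normalization, 43.7% with median centring and 73.0% with CD3 centring. All 8 receptors kept their direction and their call under each of these. Relative to CD3 transcripts the falls were 1.22 for Cd27 and 0.77 for Cd28, and with equal totals they were 2.19 and 1.74.

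**Figure D3:**
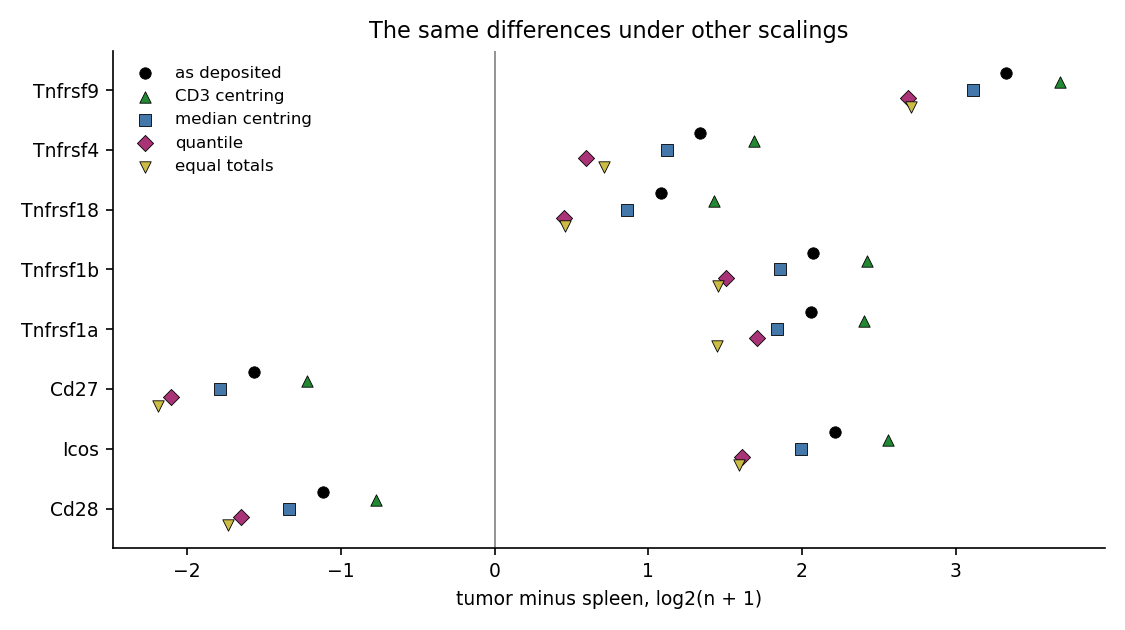
Tumor minus spleen difference of each receptor gene (both genotypes, log2 scale) as deposited and after CD3 centring, median centring, quantile normalization and scaling to equal totals of n. Tnfrsf9 ranges from 2.69 to 3.68 and Tnfrsf18 from 0.45 to 1.43, and no gene crosses 0.

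Differences between 2 genes within a library are little touched by a common scaling factor, and 4 such pairs were compared. Icos minus Cd28 was -1.26 ± 0.14 in spleen (SD, n = 6) and 2.07 ± 0.27 in tumor (SD, n = 5). The spleen libraries ran from -1.43 to -1.09 and the tumor libraries from 1.62 to 2.29. Tnfrsf9 minus Cd27 went from -1.77 ± 0.21 to 3.13 ± 0.50. The changes of 3.33 and 4.90 are given as descriptions with no test, since each of these genes alone separated the tissues, in opposite directions, and their difference had to separate them too. Tnfrsf4 minus Tnfrsf18 was 0.37 ± 0.16 in spleen and 0.62 ± 0.20 in tumor, and the tissues overlapped. The change was 0.26 (exact two-sided permutation p = 0.052, Benjamini-Hochberg adjusted p = 0.069 over the 4 pairs). That adjustment counted the 2 pairs given with no test, which made the adjusted p smaller. Without KO spleen replicate 1, WT spleen replicate 3 or WT tumor replicate 1, the unadjusted exact permutation p of Tnfrsf4 minus Tnfrsf18 was 0.048. Without WT tumor replicate 2 that p was 0.029. Tnfrsf1b minus Tnfrsf1a was 1.27 ± 0.29 in spleen and 1.29 ± 0.27 in tumor (change 0.016, exact permutation p = 0.93, adjusted p = 0.93), with overlapping libraries. The change of Tnfrsf1b minus Tnfrsf1a turned to -0.20 with quantile normalization. Whether levels are per transcript length is not stated, so only the change of a pair between tissues is a comparison.

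**Figure D4:**
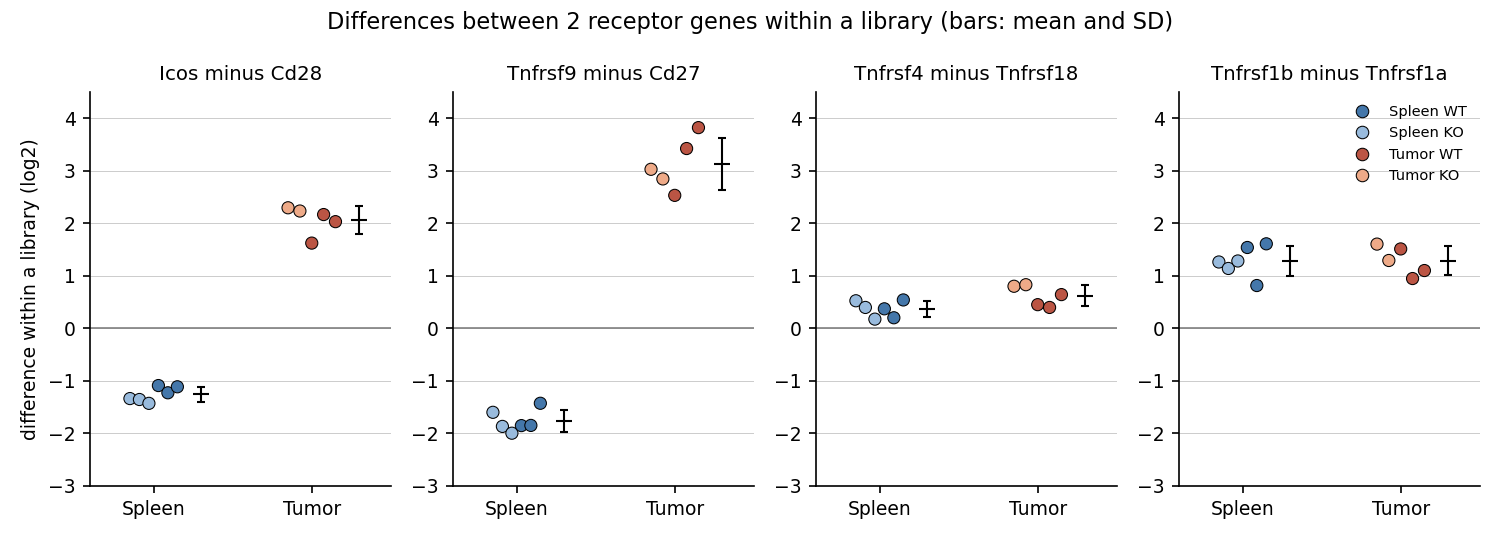
Difference in log2(n + 1) between 2 receptor genes within each library, for spleen and tumor, with the mean and SD per tissue and colors for genotype. Icos minus Cd28 and Tnfrsf9 minus Cd27 do not overlap between the tissues, and the other pairs do.

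Between genotypes, none of the 8 receptors was called in spleen, in tumor or in the tissue by genotype interaction. With limma, 0% of the tested genes were called in spleen, 0.0072% (1 gene) in tumor and 0% in the interaction. At an unadjusted p below 0.05 there were 281 genes in spleen, 634 in tumor and 383 in the interaction. Of the receptors, 0 were below that level in spleen, 0 in tumor and 1, Tnfrsf1b, in the interaction. KO minus WT differences ran from -0.17 to 0.31 in spleen and from -0.14 to 0.46 in tumor. Their unadjusted 95% intervals reached from -0.56 to 0.64 and from -0.50 to 0.99, so differences within these bounds were not excluded. The comparisons held 3 against 3 and 2 against 3 libraries.

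The receptor with the widest genotype difference in spleen was Cd28, whose KO libraries (7.11 to 7.24) all lay above the WT libraries (6.68 to 7.04). The difference was 0.31 (95% interval -0.02 to 0.64, limma adjusted p = 0.9997). In tumor, Tnfrsf1b was above the WT libraries (7.59 to 7.73) in both KO libraries (7.88 and 7.99), by 0.27 (95% interval -0.03 to 0.56, limma adjusted p = 0.9997). The tumor differences of Tnfrsf4 (0.46, 95% interval -0.06 to 0.99) and Cd27 (0.42, 95% interval -0.01 to 0.85) were larger, with overlapping libraries. In the same comparison the Treg genes Foxp3, Ikzf2 and Ikzf4 differed by 0.83, 0.63 and 0.49, Il2ra by 0.56 and Cd4 by -0.23. The CD8 T-cell markers Cd8a and Cd8b1 differed by -1.06 and -1.12. None of these was called, and their part in the receptor differences was not tested. Genotypes did not overlap for 1 of 8 receptors in each tissue, beside 9.17% of the tested genes in spleen and 13.6% in tumor. The tissue difference of Tnfrsf1b was 0.41 larger in KO than in WT mice (95% interval 0.02 to 0.81, limma adjusted p = 0.9997). That of Tnfrsf4 was 0.53 larger, with an interval from -0.17 to 1.24. Cd28 had a fall deeper by 0.45 in KO mice, with an interval from -0.93 to 0.04 for the interaction. Cd27 had a fall shallower by 0.48, with an interval from -0.10 to 1.06, and from 0.28 to 0.71 with 1 library left out. Leaving out 1 library moved the interaction of Tnfrsf4 to between 0.30 (without KO tumor replicate 1) and 0.77 (without KO tumor replicate 2). The interaction of Cd28 moved to between -0.66 and -0.23 (without the same libraries).

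The ligands of these receptors were mostly higher in the tumor libraries too. Of 9 ligand genes, 8 were listed and 7 tested, and 6 were called higher and 1 lower, with a median difference of 2.11 (3.45 with a pseudocount of 0.1, 1.26 with 5). The largest rises were those of Tnfsf9, the 4-1BB ligand (4.77, SE 0.42), and Tnf (3.39, SE 0.43). The spread of both was wide in tumor, with an SD of 1.13 for Tnfsf9 and 1.21 for Tnf. Cd80 rose by 3.02, Tnfsf4, the OX40 ligand, by 2.11, and Cd86 by 1.39. Icosl, the ICOS ligand, was 0.66 higher, a call that was lost with 4 of the scalings, and Lta, which encodes lymphotoxin alpha, fell by 0.88. The GITR ligand gene Tnfsf18 was below the level required for the test. Apart from Lta, these ligands are typically made by antigen-presenting cells, and T cells make Tnf and Lta.

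Other TNF receptor superfamily genes moved in both directions. Of 21 genes in the list, 17 were listed and tested, of which 9 were called higher, 6 lower and 2 neither, with a median of 0.56. With equal totals these were 7 higher and 8 lower with a median of -0.05. Ltbr, the lymphotoxin beta receptor of stromal and myeloid cells, rose by 4.09, Cd40, which antigen-presenting cells carry, by 3.31, Tnfrsf12a by 3.13 and Tnfrsf11a, which encodes RANK, by 2.49. Tnfrsf25, the death receptor DR3 of T cells, fell by 2.54, and Tnfrsf22, a decoy receptor for TRAIL, fell by 1.82. Among the inhibitory CD28 family, Pdcd1 (PD-1) rose by 2.26 and Btla fell by 2.64. Ctla4 was 0.57 higher as deposited but turned to -0.06 with equal totals and to -0.29 with quantile normalization.

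Downstream genes showed a mixed pattern for the TNF receptors and more falls than rises for CD28 and ICOS. Of 11 adaptor genes of TNF receptors, 3 were called higher, 3 lower and 5 neither, with a median of -0.07, while 1 was higher and 8 lower with equal totals (median -0.70) and 5 were higher and 1 lower with CD3 centring (median 0.28). Siva1, a proapoptotic protein that binds CD27, rose by 1.74, and Traf5, an adaptor of CD27 and OX40, fell by 1.80. Traf1 differed by -0.07 (SE 0.14, limma adjusted p = 0.64), stood at 0.28 with CD3 centring, and was called lower with equal totals (-0.70) and quantile normalization (-0.73). Of 12 genes listed for CD28 and ICOS signalling, 2 rose, 7 fell and 3 did neither, with a median of -0.43 (-1.05 with equal totals, -0.09 with CD3 centring). Prkcq, the kinase PKC-theta of the T-cell synapse, fell by 2.79, and the kinases Lck and Pik3cd fell by 1.28 and by 1.24. The rises were those of the adaptor Grb2 (1.04) and the kinase Akt1 (0.996). The symbol Pdk1 in that list is the pyruvate dehydrogenase kinase gene and not the kinase downstream of CD28, and it was among the 3 that were not called (0.05).

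Markers of other cells differed between the tissues beside the receptors. All 15 myeloid markers were called higher in tumor with a median of 5.01, and their summed level, log2 of the summed n plus 1, was 8.80 to 9.83 in spleen and 14.2 to 14.7 in tumor. None of the 15 was at 0 in spleen, and Lyz2 rose from 4.75 to 12.3. Of 6 fibroblast markers tested, 5 rose, with summed levels of 2.34 to 2.64 and 9.21 to 10.4. Of 9 CD8 T and NK cell markers, 6 rose and 1 fell, and the sums were 5.48 to 6.28 and 8.04 to 9.41. Of 6 B-cell markers, 1 rose and 3 fell, and the sums overlapped (3.68 to 5.69 and 3.14 to 4.37). Of 2 tumor epithelial markers tested, 1 rose. The part of these cells in the receptor differences was not tested.

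Genes that define the sorted cells and Tregs, apart from Tnfrsf18, mostly went the other way. Tnfrsf18, a gate of the sort that rose by 1.08, was counted with the receptors and not in this list. Of the 9 genes listed, 0 rose, 7 fell and 2 did neither, with a median of -0.62. Foxp3 fell by 0.85, Ikzf2, which encodes the Treg factor Helios, by 1.09, and Cd4 by 0.42, while Il2ra, which encodes CD25, differed by -0.27 (limma adjusted p = 0.12). With CD3 centring 1 of the 9 was called higher and 3 lower (median -0.27), and Foxp3 (-0.50, limma adjusted p = 0.071) and Cd4 (-0.07, limma adjusted p = 0.59) were no longer called. Il2ra stood at 0.08 with CD3 centring but was called lower with equal totals (-0.89), quantile normalization (-0.93), median centring (-0.48) and without KO tumor replicate 1 (-0.40). All 9 were detected in every library.

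**Figure D5:**
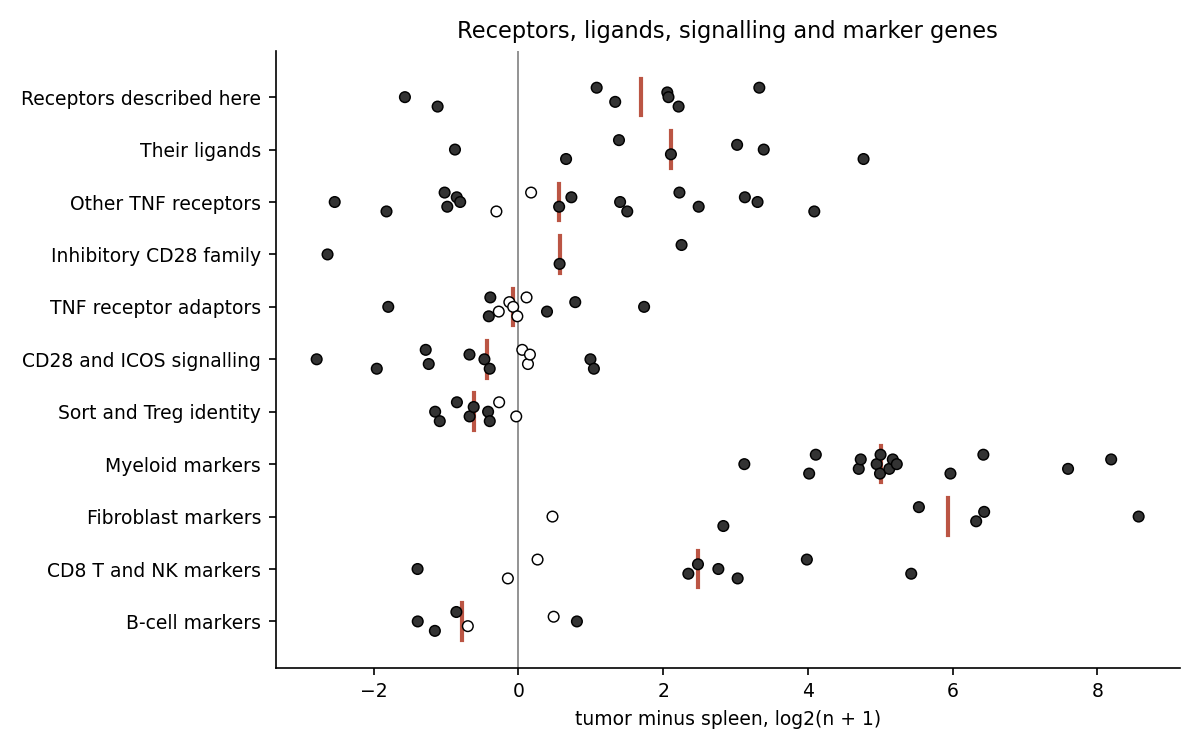
Tumor minus spleen difference on the log2(n + 1) scale for each tested gene of the receptor, ligand, signalling and marker lists, 1 point a gene. The tumor epithelial markers are not plotted. Points are filled where limma called the gene and open where it did not, with a bar at the median of each list. The receptors (median 1.70), which include the gate gene Tnfrsf18, and their ligands (2.11) lie mostly above 0. The other sort and Treg genes (-0.62) lie mostly below 0, and the myeloid markers (5.01) all lie above 3.

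Genes near the receptors on the chromosomes were compared in the same way. Within 100 kb of a receptor gene, 26 other genes were tested, of which 15 were called higher, 6 lower and 5 neither, with a median of 0.48. This stands beside 43.1% of all tested genes called higher and 35.9% lower. Sdf4, 233 bp from Tnfrsf4, rose by 1.25, and Ttll10, on the opposite strand 5945 bp from Tnfrsf18, fell by 0.66. Vamp1, which overlaps Cd27 on the opposite strand, fell by 1.92. Exons of Vamp1 and Cd27 do not overlap. Ltbr lies 35477 bp from Tnfrsf1a. Ctla4, 62095 bp from Icos, was 0.57 higher as deposited, beside 2.21 for Icos.

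The tested genes with the pattern most like each receptor were found by the root mean square difference over the 11 libraries after each gene was centred on its mean. They were Ehd1 for Tnfrsf9 (0.16 on the log2 scale), Bspry for Tnfrsf4 (0.15), Dennd5a for Tnfrsf18 (0.10), Zc3h12c for Tnfrsf1b (0.12), Emp3 for Tnfrsf1a (0.08), Foxo1 for Cd27 (0.13) and Luc7l2 for Cd28 (0.12). Icos was closest to Tnfsf4, the OX40 ligand gene (0.11), and to Dusp4 (0.13). Among the receptors themselves, Tnfrsf1b and Icos (0.19) and Tnfrsf4 and Tnfrsf18 (0.20) were the most alike, and Tnfrsf9 and Cd27 (2.46) the least. These are descriptions over libraries that share the tissue difference.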

How the data were processed

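Per the labels and the study's methods, the authors sequenced rRNA-depleted RNA of sorted Tregs in 11 libraries, pseudoaligned the reads with kallisto to mm10, processed them in sleuth 0.30.0, summed by gene symbol, and deposited a table of log2(n + 1) values (14604 genes). The version of kallisto and the release of the annotation are not given in the sources used. Whether n was rescaled is not stated, and level fell slightly with median transcript length (Spearman rho -0.20 across 13842 genes). The study gives an approximate read depth for its libraries, but not the depth of each library. For these reasons no counting interval was given and levels were not compared between genes. No raw counts were used here.

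The deposited log2 values were used without further scaling. Genes with a mean of at least 0.5 were kept, which removed 707. limma 3.58.1 in R 4.3.3 (lmFit, then eBayes with trend) was used for tumor against spleen, genotypes pooled as the study does, and, with 1 mean per tissue and genotype, the tissue difference within each genotype, the interaction and KO against WT. A gene was called at a Benjamini-Hochberg adjusted p below 0.05. Exact permutation tests used scipy 1.17.1. The fit was tested on simulated data. No 2 libraries held identical values.

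Named genes were the 8 receptors, listed ligands, receptors, signalling genes and markers, the 3 genes closest in pattern to each receptor, and genes within 100 kb. Receptors and lists were chosen with earlier results of these data known. Positions are from GENCODE M21, promoter windows from RefSeq on GRCm38.p6. Alternatives changed scaling, pseudocount (0.1 or 5), filter, variance trend, covariates, replicate block and the libraries used. Scaling to equal totals without Gm12896, Gm20594 and Lars2, the most abundant genes, was chosen after seeing the data.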

Additional observations from a re-analysis of the deposited data

Results flagged for a closer look

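In 130 groups of 5 or 6 libraries of 1 tissue, the highest or lowest library was examined with Dixon's criterion, which chance passes in about 1 in 20 groups, or 6.5 of these, and 9 stood apart. Among the 8 receptors this was Icos alone, at 8.33 in KO tumor replicate 1 beside 7.84 to 7.93 in the other tumor libraries, and without that library its tumor minus spleen difference remained called. Among related receptors and ligands, Tnfrsf22 was 7.08 in KO spleen replicate 3 beside 6.77 to 6.86, Pdcd1 was 6.55 in KO tumor replicate 2 beside 7.11 to 7.28, and Cd80 was 4.13 in WT tumor replicate 1 beside 4.68 to 4.85. Among marker genes, Col3a1 was 7.93 in KO tumor replicate 1 beside 8.89 to 9.21. Cd8a was 2.01 in KO spleen replicate 2 beside 1.23 to 1.38, and 4.07 in KO tumor replicate 2 beside 5.46 to 5.98. Among the genes closest in pattern, Ehd1 was 7.40 in WT tumor replicate 1 beside 7.78 to 7.91, and Dennd5a was 4.63 in KO spleen replicate 3 beside 4.83 to 4.93.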

How the results depend on the processing

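All 8 receptors kept their direction and call between tumor and spleen, both genotypes together, in each of 23 alternatives. Within WT mice, 6 of 8 were called with quantile normalization and with equal totals without Gm12896, Gm20594 and Lars2, where Tnfrsf4 (0.49, limma adjusted p = 0.065) and Tnfrsf18 (0.37, limma adjusted p = 0.090) were not. Genes called between KO and WT in tumor fell from 1 to 0 with quantile normalization, median centring, CD3 centring, a pseudocount of 5, no filter, equal totals without the 3 genes and tumor libraries alone, and ranged from 0 to 2 with 1 library left out. Interaction calls rose from 0 to 1 with a pseudocount of 0.1 and ranged from 0 to 1 with 1 library left out.

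No receptor passed between genotypes in 544 alternative values, of which 20 turned in sign. With equal totals, KO minus WT in spleen became 0.0080 for Tnfrsf1a and 0.0062 for Cd27. With CD3 centring it became 0.081 in tumor for Cd28. With 1 library left out it ranged in spleen from -0.19 to 0.075 for Tnfrsf4 and from -0.14 to 0.060 for Tnfrsf1a. In tumor it ranged from -0.093 to 0.29 for Tnfrsf9, from -0.11 to 0.40 for Tnfrsf18, from -0.058 to 0.44 for Icos, from -0.20 to 0.21 for Tnfrsf1a and from -0.35 to 0.080 for Cd28. The interaction ranged from -0.15 to 0.27 for Tnfrsf1a, from -0.043 to 0.46 for Tnfrsf18 and from -0.14 to 0.36 for Icos.

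Tnfrsf1b minus Tnfrsf1a turned to -0.20 with quantile normalization and -0.011 with a pseudocount of 0.1, and ranged from -0.076 to 0.10 with 1 library left out. Tnfrsf4 minus Tnfrsf18 was below an unadjusted exact permutation p of 0.05 with a pseudocount of 5 (0.26, p = 0.048) and without KO spleen replicate 1, WT spleen replicate 3, WT tumor replicate 1 or WT tumor replicate 2, and ranged from 0.20 to 0.31 with 1 library left out. Tumor minus spleen turned for Ctla4 (-0.056 with equal totals, -0.034 without the 3 genes, -0.29 with quantile normalization), Ripk1 (-0.21 and -0.19 with equal totals with and without the 3 genes), Il2ra (0.082 with CD3 centring) and Traf1 (0.28 with CD3 centring, and -0.20 to 0.034 with 1 library left out). The cause of these turns was not tested.

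Groups share replicate numbers, but the labels do not say that a number marks a mouse. Deviations from group means in same-numbered tumor and spleen libraries had correlations of -0.13, 0.0070 and -0.072 in WT, 0.019 and 0.038 in KO. In groups this small the deviations are tied to one another, so these correlations cannot decide whether numbers mark mice. With the replicate block in limma all 8 receptors stayed called, with 3.33 for Tnfrsf9 and -1.57 for Cd27. Over the 5 numbered pairs with a replicate block, Icos minus Cd28 changed by 3.30 and Tnfrsf9 minus Cd27 by 4.85, and 5 pairs cannot give an exact permutation p below 0.0625. The depth of each library is not given, and 2 KO tumor libraries limit every comparison that uses them.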
